A study of Rattus norvegicus with 196 samples.

Results

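Expression in the dorsal dentate gyrus (dorDG) was compared with that in the ventral dentate gyrus (venDG) in rats given only water, the Sham group, using every Sham library of these regions, 8 of the 196 RNA-seq libraries of the series. The libraries were 4 of dorDG and 4 of venDG, replicates 1, 3, 4 and 5 of each, and a replicate number marked a dorDG and a venDG library that were treated as a pair. All came from male Long-Evans rats that were 2 months old at the start, kept on water for 6 weeks, and each library held RNA from tissue punches pooled over 10 animals. The same regions of rats given fluoxetine at 18 mg/kg in the drinking water for 6 weeks (FT, another 4 dorDG and 4 venDG libraries) served as a second set of samples for the same comparison.

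The dentate gyrus is the entry station of the hippocampal circuit. Its principal neurons are the granule cells, which receive input from the entorhinal cortex and send mossy fibres to mossy cells of the hilus and to pyramidal cells of CA3, and new granule cells are added in adult life. The dorsal pole of the hippocampus is linked mainly to spatial learning and the ventral pole to stress and emotional behaviour, and the ventral pole lies beside the amygdala and the ventricle. A punch holds every cell type at its position, so fewer cells of a type and less RNA per cell cannot be told apart here.

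The libraries differed in depth and make-up along the replicate number. Reads assigned to transcripts came to 11750132, 6409622, 37950261 and 17284723 in dorDG replicates 1, 3, 4 and 5, and to 11551528, 5577115, 15883003 and 11907748 in venDG. The 50 transcripts with the most reads took 69.0% of the reads in dorDG replicate 3 and 72.7% in venDG replicate 3, against 20.7% and 24.1% in replicate 5. In replicate 1 the regions themselves were apart, at 35.1% in dorDG and 47.8% in venDG. The label of dorDG replicate 1 says that its raw files were corrupted. Levels are given as CPM, the counts per 1000000 reads of a library after TMM normalization, and are not scaled to transcript length, so an order of levels between genes is one of reads only. A log2FC is dorDG minus venDG within replicate pairs, with its standard error (SE), and a DEG had an edgeR adjusted p of at most 0.1 and a log2FC of at least 0.32 in either direction.

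Of 13218 transcripts tested, 956 were DEGs (7.23%), with 450 higher in dorDG (3.40%) and 506 higher in venDG (3.83%). The changes were larger on the ventral side. The median log2FC was 0.67 among transcripts higher in dorDG, where 83 differed by at least 2-fold, and -0.95 among those higher in venDG, where 237 did. The count leaned on the pairing and on single replicates. Without the pairing no transcript was a DEG (327 had an unadjusted p under 0.05), and without replicate 3 there were 205 (1.49%), of which 196 were among the 956. Leaving out replicate 4 or 5 gave 364 (2.85%) or 361 (2.86%) DEGs, and leaving out replicate 1 gave 1859 (13.5%). DESeq2 called 1092 (7.53%), among them 908 of the 956. With library totals in place of the TMM normalization, 439 were called and the share higher in dorDG went from 47.1% to 64.7%, as the median of all transcripts moved from 0.04 to 0.16. That share was 60.2% with no low-count filter and 29.3% without replicate 3. The direction was the same in all 4 pairs for 29.9% of all transcripts tested, and the dorDG and venDG values did not overlap for 2.20%.

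Symbols were at hand for 1822 of the transcripts tested, all of them genes that the study had chosen for a response to FT in several brain regions on these same Sham samples, so a gene missing below was not assessed. Of these, 172 were DEGs (9.44%), 92 higher in dorDG (5.05%) and 80 higher in venDG (4.39%). The calls of each gene list below are to be read beside these shares. The plot of leading genes shows the 12 with the largest change in each direction, library by library.

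**Figure D1:**
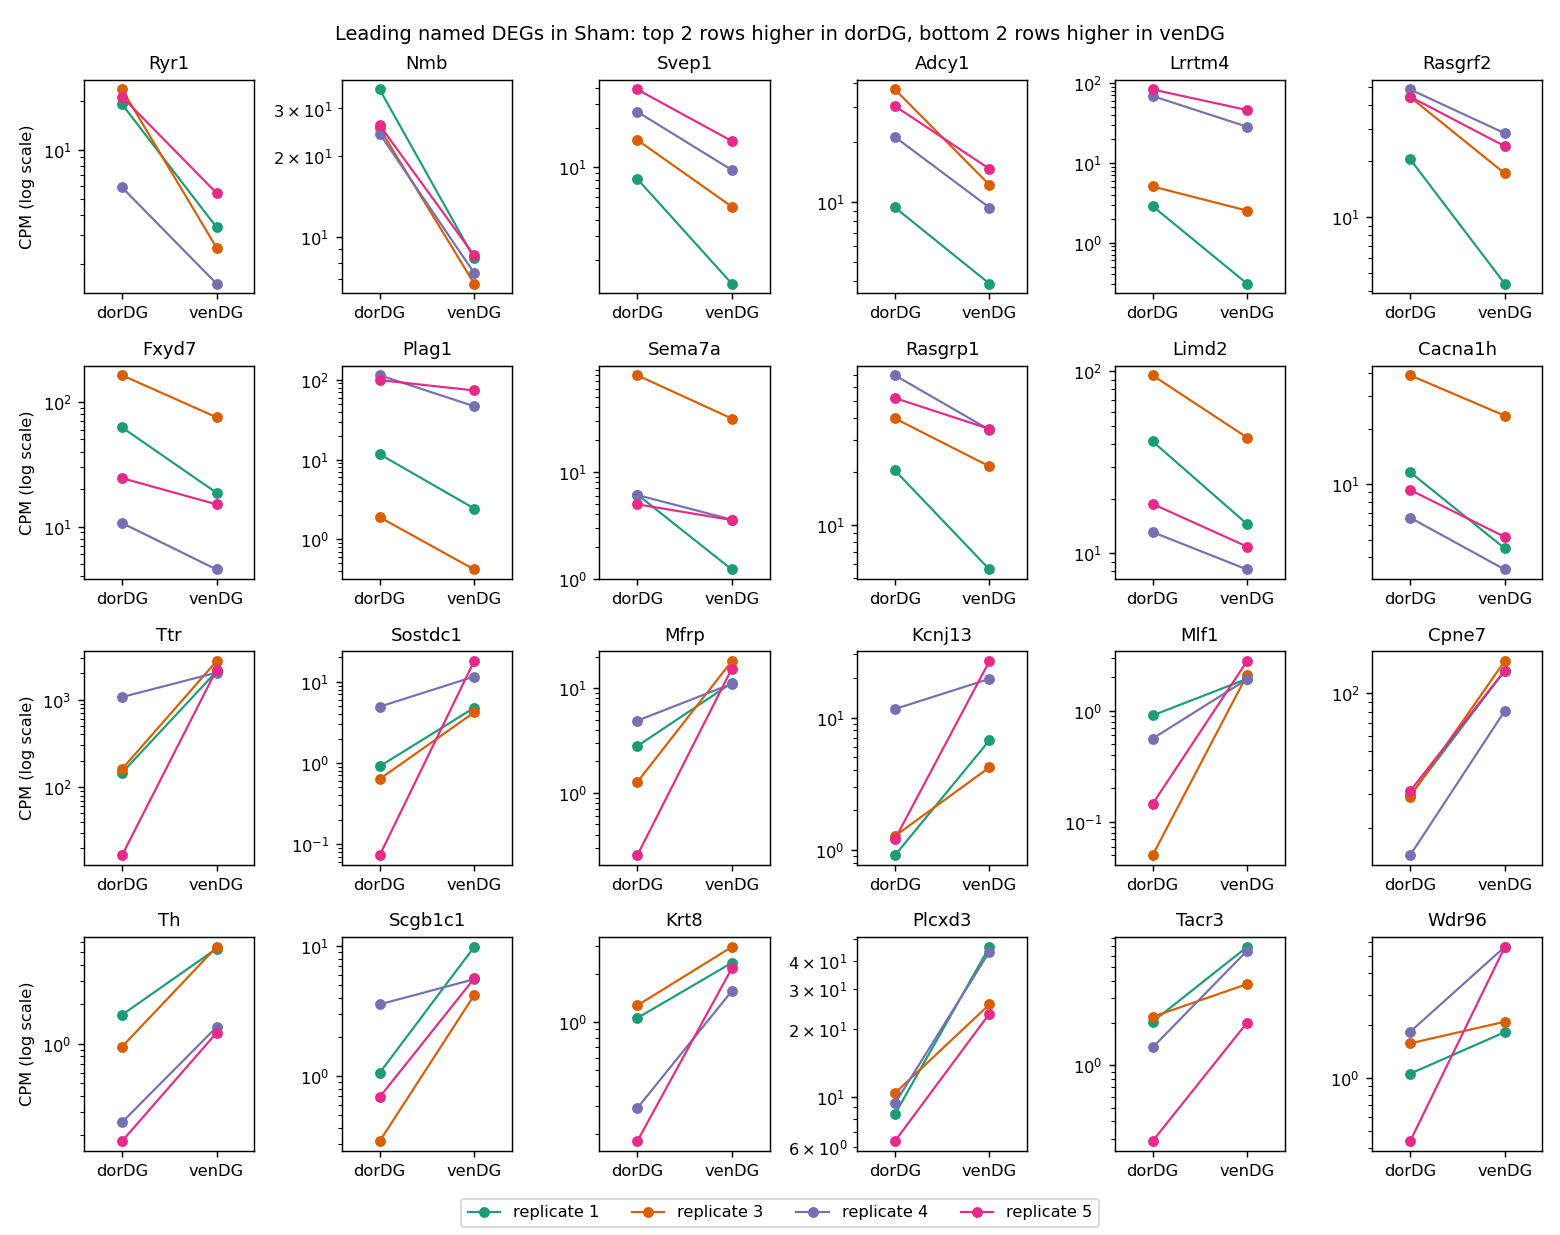
CPM on log axes in each Sham library for the 12 named DEGs with the largest rise in dorDG (top) and the 12 with the largest rise in venDG (bottom), with a line joining the dorDG and venDG libraries of a replicate number. Every line runs the same way within a panel, while the height of the lines differs between replicates for many genes. A value of 0 (Mlf1, dorDG replicate 3) is drawn at 0.05 CPM.

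The identity of the punches was checked first with granule cell genes. Neurod1, a transcription factor of granule neurons and their progenitors, stood at 56.7 CPM in dorDG and 34.9 CPM in venDG against a median of 3.62 CPM over the other 23 regions in Sham, and Rfx3, a transcription factor, at 47.6 and 32.0 CPM against 7.94 CPM. Not every gene of the list stood apart in this way. Synpr, a synaptic vesicle protein, was at 77.5 CPM in dorDG and 53.2 CPM in venDG against a median of 58.1 CPM, and Neurod1 was higher in the periaqueductal grey, at 104 CPM, than in dorDG. Of 5 such genes measured, 3 were higher in dorDG, 0 were higher in venDG, and all 5 log2FCs were above 0, with a median of 0.67 beside 0.05 over all named transcripts. Their summed level was 173, 222, 301 and 371 CPM in dorDG replicates 1, 3, 4 and 5 and 113, 165, 198 and 247 CPM in venDG, higher in dorDG in every pair.

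Neurod1 was at 59.2, 69.9, 27.0 and 63.3 CPM in dorDG and at 27.3, 49.6, 20.6 and 39.8 CPM in venDG, a log2FC of 0.67 (SE 0.14, edgeR adjusted p = 0.0378). The ranges overlapped, but dorDG was above venDG in each pair. Lrrtm4, a postsynaptic adhesion protein that organises excitatory synapses, had a log2FC of 1.23 (SE 0.23, edgeR adjusted p = 0.0262). Rfx3 had one of 0.57 (SE 0.12, edgeR adjusted p = 0.0416). Synpr, a synaptic vesicle protein of mossy fibres, and C1ql3, a secreted synaptic organiser, had log2FCs of 0.73 (SE 0.30) and 0.31 (SE 0.14) and did not pass the test. Without replicate 1 these were 0.30 and 0.45, and C1ql3 was a DEG there (edgeR adjusted p = 0.0104). C1ql3 was also a DEG in FT (log2FC 0.50, edgeR adjusted p = 0.0908), and Synpr was not.

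Of 2 mossy cell genes, DRD2, a dopamine receptor of mossy cells and of striatal neurons, was a DEG, higher in venDG at 1.78 against 0.65 CPM, and Calcrl was at 2.37 and 2.13 CPM with a log2FC of -0.10 (SE 0.34). The list of CA pyramidal and subicular genes split. Enc1, an actin-binding kelch protein, and Kctd4 were higher in dorDG, Cpne7 and Hs3st2 higher in venDG, and 3 did not pass the test. Enc1 stood at 642, 574, 586 and 499 CPM in dorDG and at 398, 330, 365 and 336 CPM in venDG, so that the lowest dorDG library lay above the highest venDG library (log2FC 0.69, SE 0.11, edgeR adjusted p = 0.0157). Kctd4 had a log2FC of 0.75 (SE 0.11, edgeR adjusted p = 0.0116). Wfs1, a marker of CA1 pyramidal cells, was at 33.3 CPM in dorDG and 29.3 CPM in venDG, with 2 pairs in each direction. Its log2FC within pairs was -0.27 (SE 0.44). It was -0.885 without replicate 1 (edgeR adjusted p = 0.0448) and 0.22 without replicate 5. In FT Wfs1 was called higher in dorDG (log2FC 1.13, edgeR adjusted p = 0.00439). Chrm1, a muscarinic receptor, and Lmo1, a LIM domain protein, had log2FCs of 0.45 (SE 0.19) and -0.02 (SE 0.35). Without replicate 3, Kctd4 remained a DEG and Lrrtm4, Neurod1, Rfx3 and Enc1 did not (edgeR adjusted p from 0.113 to 0.167). Lrrtm4 and Rfx3 were also lost without replicate 4, and Neurod1 and Rfx3 without replicate 5. The call of DRD2 was lost when any one of replicates 3, 4 and 5 was left out, and it was too low to be tested without replicate 1.

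Genes that turn calcium, cyclic AMP and diacylglycerol into intracellular signals made up the list with the most calls by number on the dorsal side. The lists differ in size. Of 26 measured, 7 were higher in dorDG and 1 was higher in venDG, beside 5.05% and 4.39% of all named transcripts. The other 18 did not pass the test. The median log2FC was 0.18, beside 0.04 over all transcripts. Without replicate 1 these medians were 0.06 and 0.001. Outside this list, Ryr1, a channel that releases calcium from intracellular stores, had the largest named rise. It was at 19.0, 23.4, 5.89 and 21.1 CPM in dorDG and at 3.36, 2.52, 1.52 and 5.44 CPM in venDG (log2FC 2.26, SE 0.21, edgeR adjusted p = 0.00281). The groups did not overlap, and replicate 4 was low in both regions. Adcy1, the adenylyl cyclase that calcium and calmodulin activate, was at 9.38, 37.0, 21.3 and 30.5 CPM in dorDG and at 3.87, 12.2, 9.37 and 14.7 CPM in venDG (log2FC 1.24, SE 0.15, edgeR adjusted p = 0.00595). Its ranges overlapped through dorDG replicate 1 alone.

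A pair of Ras activators moved the same way. Rasgrf2, an exchange factor switched on by calcium, had a log2FC of 1.22 (SE 0.22, edgeR adjusted p = 0.0203), and Rasgrp1, one switched on by diacylglycerol, had 1.05 (SE 0.19, edgeR adjusted p = 0.0219). CAMK2A, the alpha subunit of the calcium- and calmodulin-dependent kinase of synapses, rose by 0.84 (SE 0.21, edgeR adjusted p = 0.0699). Rgs10, which shortens G protein signals, was higher in dorDG as well, at 234 against 154 CPM, and so was Ppp1r1a, an inhibitor of a protein phosphatase, at 87.0 against 60.1 CPM.

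Of 3 diacylglycerol kinases in the list, enzymes that end diacylglycerol signals, 1 was higher in each region and Dgkb did not pass the test (log2FC -0.31, SE 0.12, edgeR adjusted p = 0.199). Dgkz was higher in dorDG, at 281 against 174 CPM (log2FC 0.61, SE 0.13, edgeR adjusted p = 0.0417). Dgkg was higher in venDG, at 326, 160, 198 and 195 CPM against 125, 84.2, 145 and 154 CPM in dorDG, with no overlap (log2FC -0.77, SE 0.17, edgeR adjusted p = 0.0509). The calcium sensor Hpca had the largest difference among members that were not called, at 1585, 1873, 339 and 929 CPM in dorDG and 96.8, 1021, 220 and 610 CPM in venDG. Its log2FC of 1.41 had an SE of 0.52 (edgeR adjusted p = 0.182), with the widest gap in replicate 1. Without replicate 3, Ryr1 and Adcy1 remained DEGs and the other 7 named signalling genes did not (edgeR adjusted p from 0.153 to 0.259), although all 9 kept their direction. Rgs10 and Ppp1r1a were also lost without replicate 4, and CAMK2A and Ppp1r1a without replicate 5.

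Other leading dorsal genes were a neuropeptide and matrix, transport and nuclear proteins. Nmb, the precursor of neuromedin B, was at 35.3, 25.3, 24.2 and 26.0 CPM in dorDG and at 8.35, 6.72, 7.36 and 8.55 CPM in venDG, 3.50-fold higher in dorDG (log2FC 1.81, SE 0.14, edgeR adjusted p = 0.00126). The groups were far apart, and dorDG replicate 1 was the highest library. Svep1, a large extracellular matrix protein, was at 8.17, 16.1, 26.3 and 38.8 CPM in dorDG and at 1.32, 5.04, 9.55 and 15.8 CPM in venDG (log2FC 1.63, SE 0.21, edgeR adjusted p = 0.00671), in the same replicate order in both regions.

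Fxyd7, which modulates the sodium pump in brain, Plag1, a zinc finger transcription factor, and Limd2, a LIM domain protein, had log2FCs of 1.19, 1.17 and 1.02. Their levels differed more between replicates than between regions. Plag1, for example, was at 11.7, 1.90, 114 and 99.2 CPM in dorDG and at 2.44, 0.42, 46.7 and 73.6 CPM in venDG (SE 0.26, edgeR adjusted p = 0.0469). Without replicate 3, Nmb and Svep1 remained DEGs, while Fxyd7, Plag1 and Limd2 had edgeR adjusted p values from 0.108 to 0.193, and Plag1 was also lost without replicate 4. The unnamed transcripts with the largest rises in dorDG were ENSRNOT00000004026, at 15.8 against 2.71 CPM (log2FC 2.38, SE 0.28), and ENSRNOT00000064141, at 7.60 against 1.14 CPM (log2FC 2.28, SE 0.33). Neither overlapped between regions.

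On the ventral side the most distinct named gene was Cpne7, a copine, a protein that binds membranes when calcium rises. It was at 131, 147, 80.9 and 131 CPM in venDG and at 29.5, 29.1, 14.4 and 31.1 CPM in dorDG, 4.78-fold higher in venDG (log2FC -2.26, SE 0.12, edgeR adjusted p = 0.00018). The groups did not overlap and replicate 4 was the lowest of both. Plcxd3, a phospholipase C-like protein, was at 45.9, 25.6, 43.7 and 23.3 CPM in venDG and at 8.40, 10.4, 9.37 and 6.39 CPM in dorDG (log2FC -2.03, SE 0.18, edgeR adjusted p = 0.00261), again without overlap.

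Among 14 transcripts of neuropeptides, their receptors and processing enzymes, 3 were higher in venDG and Nmb was higher in dorDG. Over all named transcripts the shares were 4.39% and 5.05%. Cck, the peptide cholecystokinin, made by interneurons and by some principal neurons, was at 127, 512, 18.0 and 18.5 CPM in venDG and at 43.1, 191, 7.00 and 6.75 CPM in dorDG. Replicate 3 was far above replicates 4 and 5 in both regions, yet each pair differed by a like factor (log2FC -1.45, SE 0.11, edgeR adjusted p = 0.000779). Vip, the vasoactive intestinal peptide of interneurons, was 2.02-fold higher in venDG (log2FC -1.01, SE 0.16, edgeR adjusted p = 0.0144). Tacr3, the receptor for neurokinin B, was at 4.81 against 1.47 CPM (log2FC -2.03, SE 0.30, edgeR adjusted p = 0.0127). Of 8 interneuron genes, Cck and Vip were higher in venDG, Lamp5, a membrane protein of a class of interneurons, was higher in dorDG, at 71.6 against 50.2 CPM (edgeR adjusted p = 0.0775), and 5 did not pass the test. The call of Lamp5 was lost when any one of replicates 3, 4 and 5 was left out.

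Th, the rate-limiting enzyme of catecholamine synthesis, was low in both regions, at 5.30, 5.46, 1.34 and 1.21 CPM in venDG and at 1.66, 0.95, 0.25 and 0.18 CPM in dorDG (log2FC -2.20, SE 0.32, edgeR adjusted p = 0.0111). Hs3st2, which modifies heparan sulfate, had a log2FC of -1.29 (SE 0.25, edgeR adjusted p = 0.0293). Cpne7, Plcxd3, Cck, Vip, Tacr3 and Th remained DEGs without each replicate in turn, and Hs3st2 was lost without replicate 3 (edgeR adjusted p = 0.137) and without replicate 5 (0.125). The unnamed transcripts with the largest rises in venDG were ENSRNOT00000060838, at 2.12 against 0.13 CPM (log2FC -3.52, SE 0.46), and ENSRNOT00000039876, at 16.8 against 1.46 CPM (log2FC -3.45, SE 0.23), neither with overlap.

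Choroid plexus genes had the largest named differences of all. This epithelium lies within the ventricles and makes cerebrospinal fluid, and its genes are not part of the granule cell programme. Of 5 measured, 4 were higher in venDG, with a median log2FC of -2.71, which was -3.65 without replicate 4 and -1.78 without replicate 5. Ttr, the carrier of thyroid hormone that the epithelium secretes, was at 2101, 2755, 2034 and 2199 CPM in venDG and at 146, 161, 1070 and 16.6 CPM in dorDG (log2FC -3.97, SE 0.87, edgeR adjusted p = 0.0448). The venDG libraries were close together, while dorDG replicate 4 was far above the other dorDG libraries.

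Mfrp, a frizzled-related membrane protein, was at 11.2, 18.1, 11.0 and 15.3 CPM in venDG and at 2.80, 1.27, 4.89 and 0.25 CPM in dorDG (log2FC -2.71, SE 0.62, edgeR adjusted p = 0.0514). Sostdc1, a secreted antagonist of BMP and Wnt signals, and Kcnj13, an inwardly rectifying potassium channel, had log2FCs of -2.94 (SE 0.81) and -2.45 (SE 0.59). Car12, a carbonic anhydrase, was at 11.3 CPM in dorDG and 11.7 CPM in venDG. Of the 25 Sham regions, normalized together, Car12 was highest in venDG and dorDG, at 12.2 and 11.8 CPM. Its median over the other 23 was 2.11 CPM, whereas Ttr, Mfrp, Sostdc1 and Kcnj13 were highest in the locus coeruleus. The list summed to 2125, 2790, 2089 and 2283 CPM in venDG replicates 1, 3, 4 and 5 and to 153, 169, 1100 and 46.7 CPM in dorDG, and no member was at 0 in a library. Ttr had the most reads of the list in every library but dorDG replicate 5, where it was at 16.6 CPM and Car12 at 28.6 CPM. With library totals as the scale, 0 of the 5 were called.

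Genes of ciliated ependymal cells, which line the same ventricles, were split, with 3 of 9 higher in venDG and 6 not called, and with library totals as the scale 0 of the 9 were called. Mlf1, Wdr96, a protein of motile cilia, and Tekt1, a microtubule protein of cilia, had log2FCs of -2.30, -1.88 and -0.85, at levels of at most 5.62 CPM. Their list summed to between 67.7 and 97.4 CPM in dorDG and between 66.4 and 113 CPM in venDG, overlapping ranges. Krt8, an epithelial keratin, and Scgb1c1, a secretoglobin, were among the leading ventral genes too, at 2.25 against 0.70 CPM and at 6.33 against 1.41 CPM. Without replicate 3 none of these 9 DEGs passed (edgeR adjusted p from 0.145 to 0.256), although each kept its direction. Mlf1, Krt8, Wdr96 and Tekt1 were also lost without replicate 4 and without replicate 5, and Scgb1c1 without replicate 5. How far ventricular tissue in the punches accounts for other ventral differences was not tested.

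Genes of astrocytes and vessels leaned to the ventral side. Of 16 astrocyte genes, 4 were higher in venDG and 15 had a log2FC below 0, with a median of -0.26. Over all named transcripts 4.39% were higher in venDG. Slc25a18, a mitochondrial glutamate carrier, was at 66.1, 33.6, 29.7 and 38.2 CPM in venDG and at 32.5, 22.5, 14.8 and 22.2 CPM in dorDG (log2FC -0.87, SE 0.12, edgeR adjusted p = 0.0105). Agt, Ednrb and Ppap2b, which encode angiotensinogen, an endothelin receptor and a lipid phosphatase, had smaller changes of -0.57, -0.51 and -0.42. Apoe, the transcript of the list with the most reads, had a log2FC of -0.45 and was not called (SE 0.14, edgeR adjusted p = 0.125), although it was with DESeq2 (adjusted p = 0.00348) and with edgeR without replicate 1 (adjusted p = 0.0209). The astrocyte sum was 2345, 12681, 1195 and 952 CPM in dorDG and 3015, 15553, 1461 and 1172 CPM in venDG, higher in venDG within each pair but far more different between replicates.

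Of 12 vascular and meningeal genes, all had a log2FC below 0 and 3 were called, beside 4.39% of all named transcripts higher in venDG. Heyl, a Notch target of vessel walls, had a log2FC of -0.96 (SE 0.16, edgeR adjusted p = 0.0167), Ogn, a proteoglycan of connective tissue, had -1.22 (SE 0.23, edgeR adjusted p = 0.0252), and Rasip1, an endothelial protein, had -0.56. Of 2 haemoglobin transcripts, Hbb was higher in venDG, at 322 against 204 CPM (edgeR adjusted p = 0.0183). Among 9 microglial genes, only C1qa, of the complement cascade, was called, higher in venDG at 42.0 against 25.7 CPM. Among 22 genes of oligodendrocytes, the myelinating cells, 18 had a log2FC below 0 and 1 was called. Single calls in lists of 9 and 22 are near what a share of 4.39% gives. The oligodendrocyte median was -0.23, which was -0.43 without replicate 1 and -0.06 without replicate 5. With library totals as the scale the medians kept their sign but rose, from -0.26 to -0.17 for astrocyte and from -0.33 to -0.18 for vascular genes. They went from -0.17 to -0.03 for microglial and from -0.23 to -0.09 for oligodendrocyte genes. The median of all transcripts rose too on that scale, from 0.04 to 0.16. The vascular median was -0.15 without replicate 4 and the microglial median -0.28 without replicate 1. Under that scale 1 astrocyte gene and 0 genes of the other 3 lists were called. Without replicate 3, Slc25a18, Ogn and Hbb remained DEGs and the other 6 named did not (edgeR adjusted p from 0.115 to 0.237). The calls of Agt, Ednrb, Ppap2b and Rasip1 were lost without replicate 4 and without replicate 5 as well, and those of C1qa and Hbb without replicate 5.

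**Figure D2:**
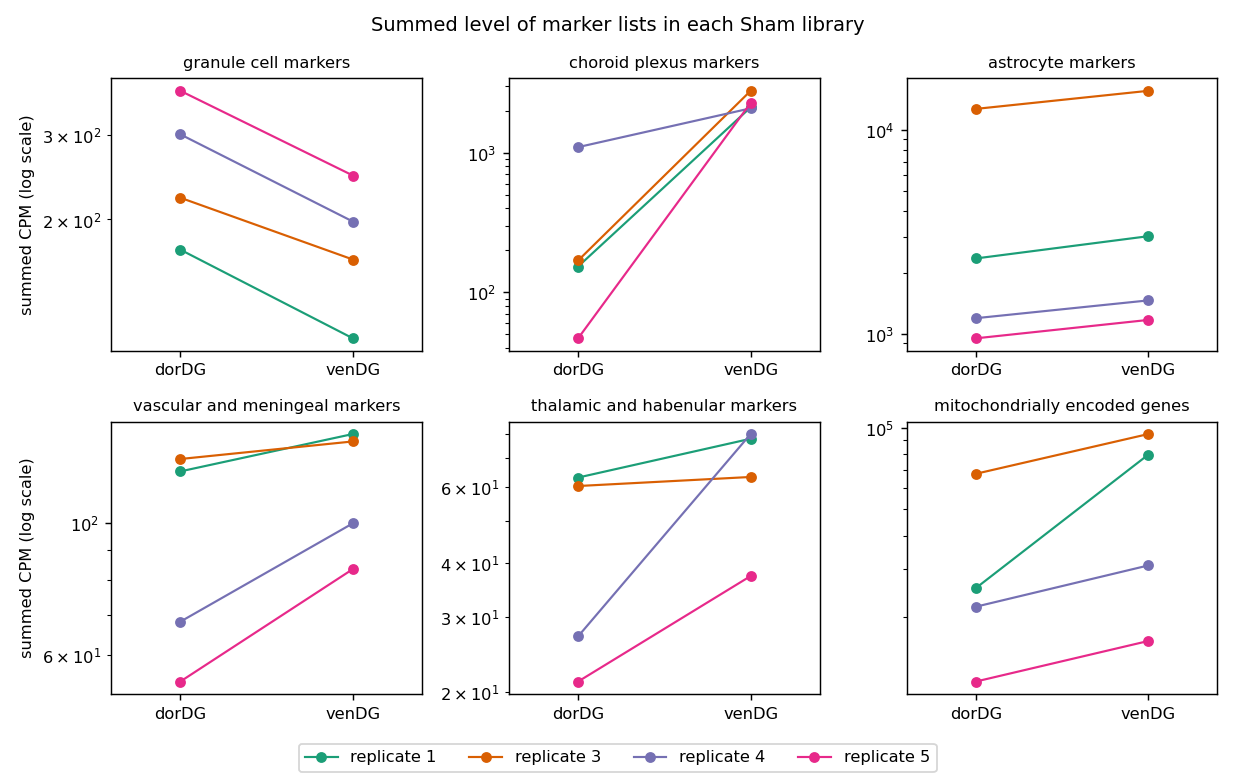
Summed CPM on log axes of 6 gene lists in each Sham library, with a line joining the dorDG and venDG libraries of a replicate number. Granule cell genes are lower and choroid plexus genes higher in venDG in each pair, and replicate 3 is the highest for astrocyte and mitochondrially encoded genes in both regions.

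Markers of neighbouring tissue gave calls on the ventral side, 2 of 4 in the thalamic and habenular list and 2 of 6 in the striatal and amygdalar list. Over all named transcripts 4.39% were higher in venDG, and DRD2 counts in the mossy cell list as well. Slc17a6, the vesicular glutamate transporter of thalamic, hypothalamic and some hippocampal neurons, was at 30.8, 25.2, 44.4 and 15.3 CPM in venDG and at 24.4, 18.3, 10.4 and 6.32 CPM in dorDG (log2FC -1.10, SE 0.28, edgeR adjusted p = 0.0700). Cbln1, a secreted synaptic organiser, was at 8.13 against 3.91 CPM. Rora and Tcf7l2, nuclear factors of thalamic neurons, had log2FCs of -0.59 (SE 0.20) and -0.24 (SE 0.23) and did not pass. In the striatal and amygdalar list, DRD2 and Syndig1l, at 3.48 against 1.11 CPM, were higher in venDG, while Adora2a, a defining receptor of striatal neurons, was at 1.97 against 0.96 CPM (log2FC -0.66, SE 0.41) and PENK, an opioid peptide precursor and the member with the most reads, at 63.5 against 51.1 CPM (log2FC -0.33, SE 0.11), neither past the test. Rasd2 and Ppp1r1b, signalling proteins of striatal neurons, had log2FCs of 0.26 and -0.09. The thalamic and habenular list summed to 77.8, 63.4, 79.8 and 37.3 CPM in venDG and to 63.2, 60.4, 27.0 and 21.2 CPM in dorDG. The calls of Slc17a6, Cbln1, DRD2 and Syndig1l were lost without replicate 3 (edgeR adjusted p from 0.113 to 0.195) and without replicate 5, and those of Slc17a6 and DRD2 without replicate 4.

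Of 8 transcripts of the mitochondrial genome, 5 were higher in venDG and 3 did not pass the test. All 8 had a log2FC below 0 in each replicate pair, with a median of -0.76. The DEGs were MT-ATP8, ND3, MT-ND4L, MT-ND5 and MT-CO2, which encode subunits of the ATP synthase, of complex I and of cytochrome c oxidase. MT-CO2 was at 24806, 23882, 8773 and 5035 CPM in venDG and at 7856, 16002, 6409 and 3412 CPM in dorDG (log2FC -0.81, SE 0.23, edgeR adjusted p = 0.0948). The gap was widest in replicate 1, the pair whose share of reads in the top 50 transcripts also differed most. The part of that difference in the result was not tested. Without replicate 1 all 5 remained DEGs.

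The nuclear genes of the same complexes gave no edgeR call, and their difference from the mitochondrial transcripts was not tested. Of 31 transcripts of respiratory chain subunits encoded in the nucleus, 0 were DEGs by edgeR, beside 7.23% of all transcripts. By DESeq2 2 were, beside 7.53%. Ndufb4 occurs more than once in this list. An unadjusted edgeR p under 0.05 was found for 10 of the 31 and for 2609 of all 13218 transcripts. The 31 transcripts had a median log2FC of -0.08, beside 0.04 over all transcripts. When library totals set the scale it was 0.06, beside 0.16. Their median was -0.21 without replicate 1 and -0.16 without replicate 4. Of 27 transcripts of cytosolic ribosomal proteins 1, Rps2, was called, higher in venDG. Of 25 transcripts of mitochondrial ribosomal proteins 0 were called by edgeR and by DESeq2 (5 had an unadjusted edgeR p under 0.05). Some symbols, such as Rpl37 and Mrpl36, occur more than once in these lists. Without replicate 3 none of the 5 mitochondrial transcripts was a DEG (edgeR adjusted p from 0.101 to 0.223), while the median over all 8 was -0.87 there and -0.55 without replicate 1. MT-ND4L, MT-ND5 and MT-CO2 were also lost without replicate 4 and without replicate 5. The call of Rps2 was lost when any one of replicates 3, 4 and 5 was left out.

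**Figure D3:**
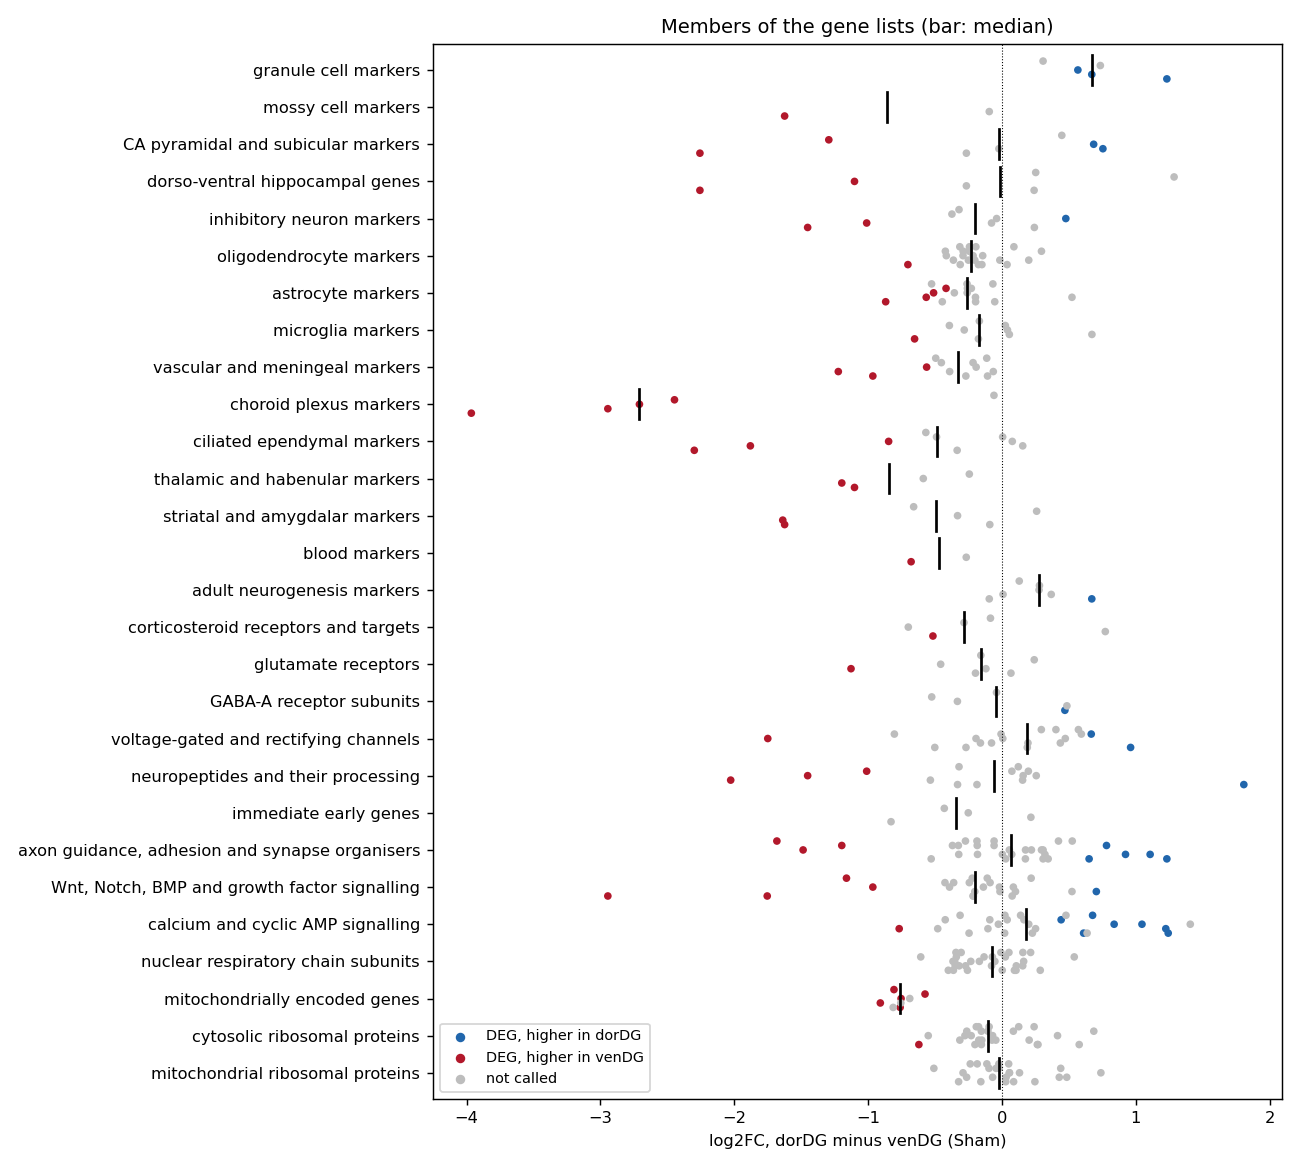
The log2FC (dorDG minus venDG, Sham) of each measured member of the gene lists, with DEGs in blue (higher in dorDG) and red (higher in venDG), others in grey, and a bar at the median. The choroid plexus list lies farthest to the left with a median of -2.71, and the granule cell list lies to the right of 0.

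Genes of synapse assembly and axon guidance were called in both directions, with 5 of 32 higher in dorDG and 3 higher in venDG, beside 5.05% and 4.39% of all named transcripts. Their median log2FC was 0.06, beside 0.05 over all named transcripts. It was 0.12 without replicate 1, 0.04 without replicate 3 and 0.205 with library totals as the scale. Over all transcripts the median on that scale was 0.16. Beside Lrrtm4, the dorsal members were Sema7a, a membrane-anchored semaphorin (log2FC 1.11, SE 0.25), Plxna4a, a semaphorin receptor (0.92, SE 0.16), Lrp1b, a large lipoprotein receptor (0.78, SE 0.16), and Lgi1, a secreted protein that joins the synaptic membranes (0.65, SE 0.11). Lgi1 was at 55.7, 53.5, 215 and 183 CPM in dorDG and at 37.1, 39.9, 123 and 112 CPM in venDG, higher in dorDG in each pair (edgeR adjusted p = 0.0179). The ventral members were Pcdh11x, a protocadherin, Nxph3, a neurexin ligand, and Cbln1. Pcdh11x was at 14.3, 8.82, 5.53 and 4.96 CPM in venDG and at 3.33, 2.53, 1.96 and 1.85 CPM in dorDG, without overlap (log2FC -1.68, SE 0.21, edgeR adjusted p = 0.00667).

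Of 19 voltage-gated and rectifying channels, 3 were DEGs, beside 9.44% of all named transcripts. The same share applies to the GABA-A and glutamate receptor lists that follow. Cacna1h, a T-type calcium channel, and Scn8a, a sodium channel of the axon initial segment, were higher in dorDG by log2FCs of 0.96 (SE 0.17) and 0.67 (SE 0.15), and Kcnk9, a leak potassium channel, was higher in venDG by -1.75 (SE 0.37). Among the GABA-A receptor subunits, Gabrd, the delta subunit of extrasynaptic receptors on granule cells, was higher in dorDG at 32.8 against 23.0 CPM (edgeR adjusted p = 0.0717), and 4 others did not pass. Among 7 glutamate receptors, GRIN3A, an NMDA receptor subunit, was higher in venDG, at 3.06, 4.20, 3.79 and 3.11 CPM against 1.66, 1.58, 1.38 and 1.71 CPM (log2FC -1.13, SE 0.25, edgeR adjusted p = 0.0451), with no overlap. Without replicate 3, Pcdh11x and Lgi1 remained DEGs and the other 10 of these synapse and channel genes did not (edgeR adjusted p from 0.104 to 0.271). GRIN3A, Gabrd, Kcnk9 and Lrp1b were lost without replicate 4, and Cbln1, GRIN3A, Gabrd, Scn8a and Lgi1 without replicate 5.

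Of 23 genes of Wnt, Notch, BMP and growth factor signalling, 4 were higher in venDG and 1 in dorDG. Over all named transcripts these shares were 4.39% and 5.05%. Igfbp2, which binds insulin-like growth factors, was at 51.1, 43.7, 22.1 and 21.0 CPM in venDG and at 21.6, 24.4, 7.12 and 1.89 CPM in dorDG (log2FC -1.75, SE 0.35, edgeR adjusted p = 0.0321). Mdk, the growth factor midkine, had a log2FC of -1.16 (SE 0.23, edgeR adjusted p = 0.0307), and Heyl and Sostdc1 belong to the vascular and choroid plexus lists as well. Of the 25 Sham regions Mdk was highest in the locus coeruleus, at 408 ± 397 CPM (SD, n = 4), as was Ttr, and Igfbp2 was second there, at 224 CPM. The part of choroid plexus and vascular tissue in these differences was not tested. Fzd6, a Wnt receptor, was higher in dorDG, at 8.37 against 5.06 CPM, in 3 of 4 pairs. Without replicate 3 none of the 5 was a DEG (edgeR adjusted p from 0.115 to 0.256), and Fzd6 was also lost without replicate 4 and without replicate 5.

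Small lists of receptors and hippocampal genes were counted beside the 9.44% of all named transcripts that were called. Htr1a, the serotonin receptor and the 1 member of its list with a symbol here, was at 7.11, 18.0, 3.06 and 10.7 CPM in dorDG and at 0.31, 9.66, 2.41 and 4.96 CPM in venDG. It was higher in dorDG in each pair but the size differed widely, and it did not pass the test (log2FC 1.29, SE 0.45, edgeR adjusted p = 0.159). It did pass with DESeq2 (adjusted p = 0.0508) and with edgeR without replicate 1 (log2FC 0.76, adjusted p = 0.0333). In FT the log2FC of Htr1a was -0.02 (SE 0.32). Nr3c2, the mineralocorticoid receptor, was at 17.2 against 11.1 CPM (log2FC 0.77, SE 0.23, edgeR adjusted p = 0.105, DESeq2 adjusted p = 0.0371). In its list of 5, Txnip, a regulator of thioredoxin, was higher in venDG (log2FC -0.52, edgeR adjusted p = 0.0956), a call lost when any one of replicates 3, 4 and 5 was left out.

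Of 7 genes of adult neurogenesis, only Neurod1 was called, and Pcna, a marker of dividing cells, was at 44.7 CPM in dorDG and 40.5 CPM in venDG (log2FC 0.13, SE 0.11). Of 4 immediate early genes, which follow recent neuronal activity, 0 were called by edgeR or DESeq2 and 0 had an unadjusted edgeR p under 0.05, and Fos was at 8.39 and 10.2 CPM (log2FC -0.25, SE 0.23). Of 6 genes known for a dorsal or ventral bias within the hippocampus as a whole, Cpne7 and Slc17a6 were higher in venDG and none was called higher in dorDG by edgeR.

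The other Sham regions placed these levels, over 97 libraries of 25 regions normalized together. Of the 450 transcripts higher in dorDG, 273 (60.7%) had their highest mean log2 CPM of all 25 regions in dorDG, against 10.1% of all transcripts tested. Of the 506 higher in venDG, 17 (3.36%) had their highest mean in venDG, against 1.72% of all tested. The DEG selection itself favours a high dorDG or venDG mean, so these shares are descriptions.

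Nmb averaged 29.2 ± 6.45 CPM in dorDG (SD, n = 4), above the shell of the nucleus accumbens at 13.0 CPM in second place, with venDG seventh at 8.05 ± 1.22 CPM. Svep1 averaged 23.6 ± 14.1 CPM in dorDG and 8.26 ± 6.61 CPM in venDG in second place. Its order at the top was thus within the spread of the libraries, which leaves out the pairing. Within pairs Svep1 was a DEG. Ryr1 was highest in dorDG at 17.8 ± 7.35 CPM, next to the infralimbic cortex at 14.1 CPM, again within the spread. Kctd4, Rfx3, Rgs10, Lgi1, Htr1a and Nr3c2 had dorDG first and venDG second of the 25 regions. For each the dorDG and venDG means lay within the spread of the libraries, a spread that leaves out the pairing. Rfx3, for example, averaged 47.6 ± 35.9 and 32.0 ± 24.2 CPM. Within pairs Kctd4, Rfx3, Rgs10 and Lgi1 were DEGs, higher in dorDG, while Htr1a and Nr3c2 did not pass by edgeR.

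Cpne7 was the 1 named leading ventral gene with its highest mean in venDG, at 126 ± 25.1 CPM (SD, n = 4), followed by MDT at 82.6 CPM, while dorDG was sixteenth at 27.1 ± 7.28 CPM. The unnamed ENSRNOT00000039876 was highest in venDG as well, at 17.5 CPM against 4.76 CPM in HB, the next region. Ttr averaged 27349 CPM in the locus coeruleus and 11958 CPM in the paraventricular nucleus, with venDG seventh at 2337 CPM. Mfrp, Kcnj13 and Sostdc1 were also highest in the locus coeruleus, with venDG sixth or seventh. For Ttr and these genes the order at the top lay within the spread of the libraries. The locus coeruleus SD of Ttr was 29280 CPM. Th was highest in the ventral tegmental area at 306 CPM. DRD2 was highest in the core of the nucleus accumbens at 65.5 CPM, next to the shell at 61.2 CPM, and dorDG and venDG ranked among the last regions for DRD2.

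**Figure D4:**
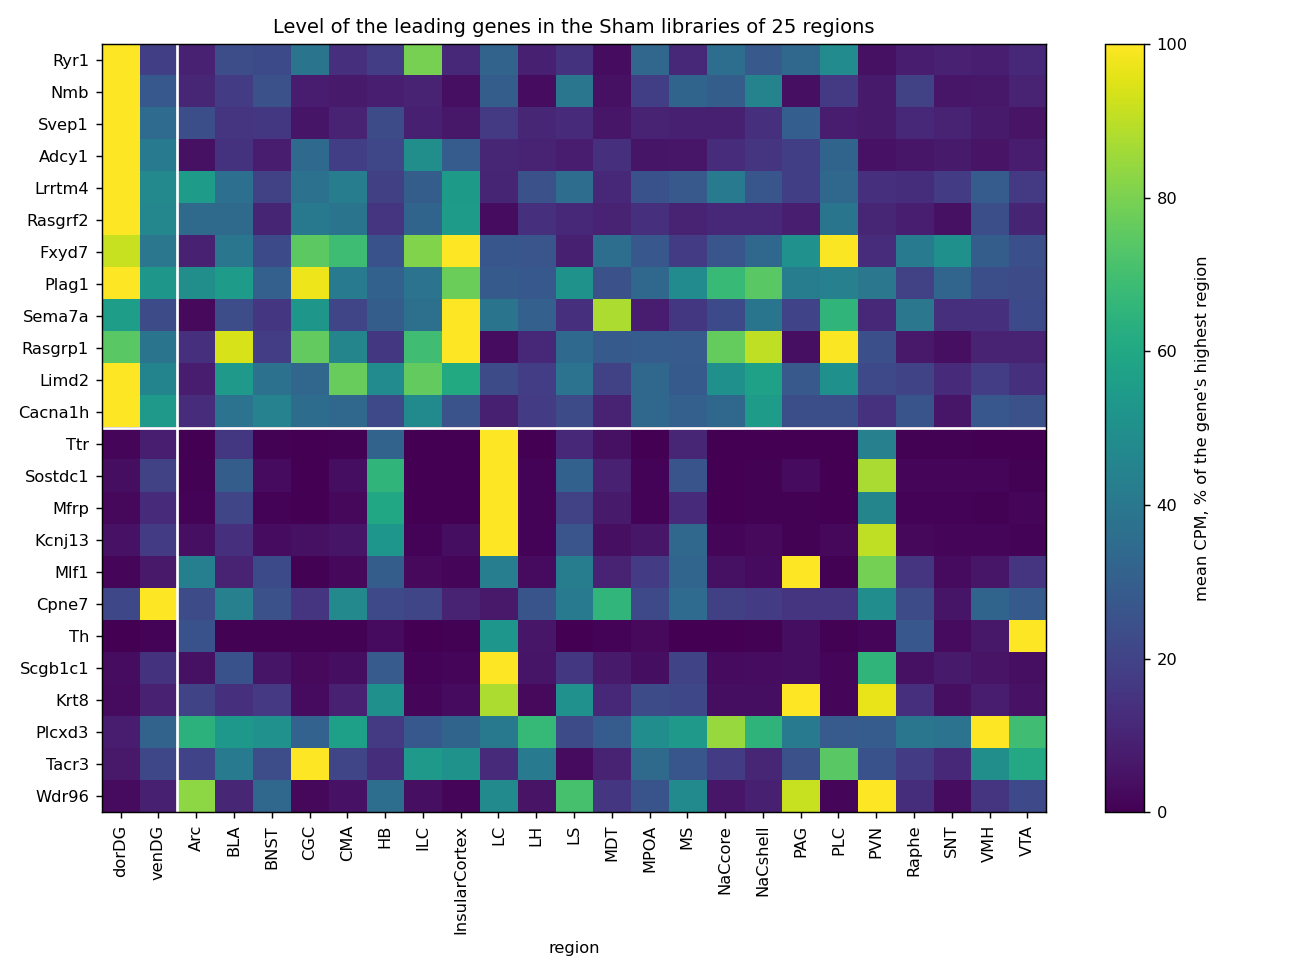
Mean CPM of the 24 leading genes in the Sham libraries of 25 regions, each gene as a percentage of its highest region, with dorDG and venDG in the first columns. For most genes of the upper block the brightest cell is dorDG, whereas in the lower block only Cpne7 is brightest in venDG.

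Across whole profiles the regions were most like each other. Over the 5838 transcripts with the most counts, the Pearson r of mean log2 CPM was 0.977 between dorDG and venDG. The next region for dorDG was the basolateral amygdala at 0.940, and for venDG the central medial amygdala at 0.968. These correlations run across transcripts, which are not independent replicates, and the region means rest on 2 to 4 libraries each.

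The FT libraries repeated the comparison in other animals. They share no sample with the Sham libraries, but replicates of the same number showed like differences in make-up, with 67.4% and 63.0% of reads in the top 50 transcripts in FT dorDG and venDG replicate 3. In FT, 988 of 13313 transcripts were DEGs (7.42%), with 445 higher in dorDG (3.34%) and 543 higher in venDG (4.08%), a split that turned with DESeq2 to 705 higher in dorDG and 484 higher in venDG. Of the 956 Sham DEGs, 467 were DEGs in FT in the same direction and 0 in the opposite one, which is 48.8% of the Sham DEGs and 47.3% of the FT DEGs. Of the 939 tested in FT, 896 (95.4%) had the same direction, against 64.6% of all 12875 transcripts tested in both.

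Cpne7 in FT was at 201, 194, 155 and 281 CPM in venDG and at 33.2, 26.6, 44.6 and 46.7 CPM in dorDG (log2FC -2.45, SE 0.19, edgeR adjusted p = 9.1e-05). Nmb was at 39.9, 22.3, 21.4 and 27.5 CPM in dorDG and at 9.99, 7.18, 10.8 and 7.58 CPM in venDG (log2FC 1.62, SE 0.20, edgeR adjusted p = 0.00124). So both genes again had groups without overlap and changes close to those of Sham. All 12 leading dorsal genes had the same direction in FT and 8 were called, and among the 12 leading ventral genes 11 had the same direction and 10 were called.

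Ttr in FT was at 2309, 5544, 522 and 78.0 CPM in venDG and at 30.4, 49.2, 5.26 and 9.60 CPM in dorDG (log2FC -5.79, SE 0.58, edgeR adjusted p = 0.000514). All 5 genes of the choroid plexus list, Car12 included, were called higher in venDG in FT. Of 12 vascular genes 5 were called higher in venDG in FT, and of 16 astrocyte genes 5. Over all transcripts tested in FT that share was 4.08%. Microglial genes gave 3 such calls, haemoglobin transcripts 2, striatal and amygdalar genes 2, oligodendrocyte genes 1 and thalamic and habenular genes 0. The mitochondrially encoded genes had a median log2FC of -0.04 in FT with 0 of 8 called, against -0.76 in Sham. Th was at 1.32, 2.15, 0.77 and 0.75 CPM in FT venDG and at 1.89, 1.44, 0.73 and 1.33 CPM in FT dorDG (log2FC 0.33, SE 0.33), and Slc17a6 had a log2FC of 0.35 (SE 0.25), against -1.10 in Sham.

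Whether the difference between the regions itself differed between FT and Sham was tested as an interaction over all 16 libraries. No transcript of 14265 passed by edgeR (0% called, 955 with an unadjusted p under 0.05) and none by DESeq2 (863 with an unadjusted p under 0.05). With edgeR, 115 passed with no low-count filter and 8 without replicate 5. Th had an interaction of 2.53 (SE 0.47, edgeR adjusted p = 0.585), Slc17a6 of 1.46 (SE 0.38, edgeR adjusted p = 0.720) and MT-CO2 of 0.86 (SE 0.38, edgeR adjusted p = 0.720). These 3 did not pass.

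**Figure D5:**
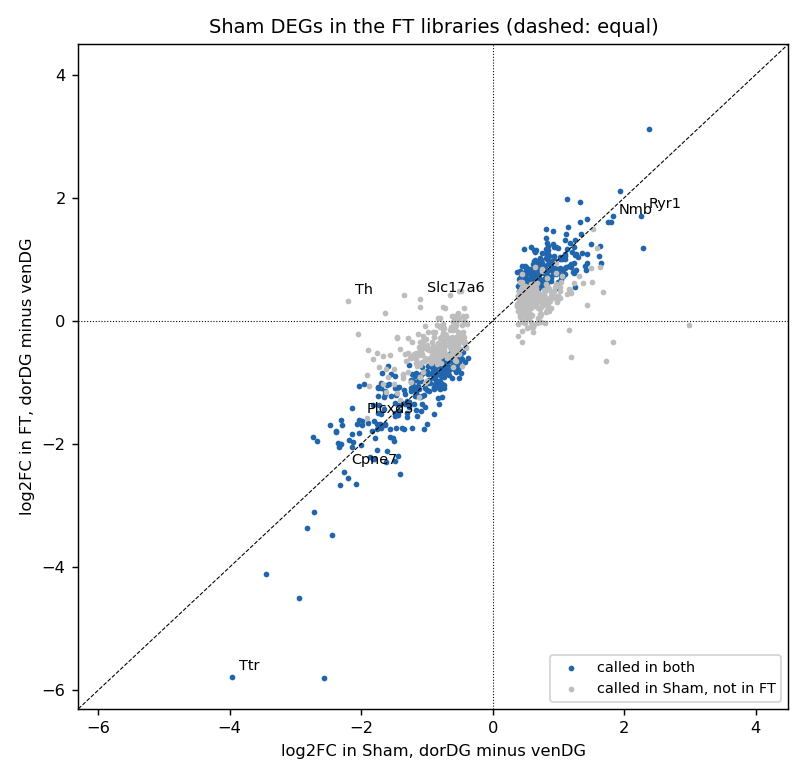
The log2FC (dorDG minus venDG) of the 939 Sham DEGs tested in FT, in Sham on the x axis and in FT on the y axis, with those called in both in blue, the others in grey and a dashed line at equal values. Most points lie in the lower left and upper right, and 43 lie in the other quadrants, Th and Slc17a6 among them.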

How the data were processed

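RNA from brain punches was sequenced with a stranded total RNA kit as paired 76-base reads. Per the labels and the study's methods, the authors aligned reads to rn5 with STAR and counted them per Ensembl transcript with HTSeq (versions not stated), and deposited raw counts for 29188 transcripts a library. Reads that fitted several transcripts (3.19% to 9.99% in these libraries) were left unassigned by that counting and, with the other summary lines, left out here. Totals ran from 5577115 to 37950261 reads.

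Counts were fitted with edgeR 4.0.16 (quasi-likelihood, TMM, filterByExpr with a minimum count of 10) in R 4.3.3, with the replicate number as a block, as in the study, and Benjamini-Hochberg adjustment. Sham, FT and their interaction (8 pool blocks) were separate fits. Deviations of dorDG and venDG libraries from their group means correlated across transcripts at 0.705, 0.829, 0.863 and 0.884 in Sham pairs 1, 3, 4 and 5, and pairs of different number at -0.748 to 0.691, and every same-number pair was over 0.1, so the numbers were taken to pair the samples. In FT venDG replicate 5 correlated at 0.828 with dorDG replicate 5 and at 0.843 with dorDG replicate 4. By the study's numbers of animals, the pools of all regions in a treatment group drew on the same set of animals. Which animals entered a pool is not stated, nor that a pair came from the same ones. The fits were tested on simulated data.

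Symbols came from a list of 1844 transcripts in the study's supplement. Genes are named if they are DEGs of, or the leading members of, 29 gene lists, or among the 12 largest changes a direction with a mean of at least 1 CPM and the same sign in 4 pairs. Some list members are not reported here. The members and lists were chosen with earlier results of these data known. Alternatives were DESeq2 1.42.0, no block, other normalizations (RLE, library totals), no filter, an adjusted p of 0.05 and leaving out each replicate.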

Additional observations from a re-analysis of the deposited data

Results flagged for a closer look

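Among the 24 leading genes, 9 of the 48 sets of 4 libraries had a value whose gap to its neighbour took more of the range than Dixon's 95% critical value allows. Chance gives about 1 in 20 such sets, and the genes share libraries. In dorDG replicate 4, Ttr was at 1070 CPM, next to 161 CPM, Kcnj13 at 11.6 CPM, next to 1.27 CPM, and Cpne7 at 14.4 CPM, below 29.1 CPM. In replicate 3, Sema7a was at 80.0 CPM in dorDG and 31.5 CPM in venDG, next to 6.13 and 3.57 CPM, and Cacna1h at 38.9 CPM in dorDG and 23.5 CPM in venDG, next to 11.6 and 5.17 CPM. In dorDG replicate 1, Nmb was at 35.3 CPM, above 26.0 CPM, and Rasgrf2 at 20.5 CPM, below 44.3 CPM. The causes were not tested.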

How the results depend on the processing

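The Sham count of 956 DEGs fell to 0 with no replicate block, 439 with library totals and 444 at an adjusted p of 0.05, and rose to 1981 with no low-count filter. It ranged from 205 to 1859 over the fits that left out a replicate. In FT the count of 988 fell to 0 with no replicate block and 463 at an adjusted p of 0.05, rose to 1898 with no filter, and ranged from 302 to 2304. The interaction count of 0 became 115 with no filter and ranged from 0 to 8 without a replicate. DESeq2 and RLE size factors kept the Sham and FT totals within 1.5 times, but with DESeq2 the FT count higher in dorDG went from 445 to 705 and the share higher in dorDG from 45.0% to 59.3%. None of the 956 Sham and 988 FT genes called reversed under any alternative in which it had a value. All 24 leading genes lost their call with no replicate block, 9 with library totals and 16 without replicate 3. With library totals the ventral calls went from 4 to 0 for choroid plexus, from 3 to 0 for vascular and for ependymal, and from 4 to 1 for astrocyte genes, as the median of all transcripts moved by 0.12. The cause was not tested. Replicate 3 has the lowest depth, and a fit without a replicate has fewer pairs.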
